A study of Homo sapiens with 16 samples.

Results

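The response of macrophages to induced mesenchymal stem cells (iMSCs) was compared between stimulated and resting cells. The comparison was a 2 × 2 design over all 16 of the 16 libraries in the series. For each gene, the co-culture effect under stimulation (M0+LPS+IFN-γ+iMSCs over M0+LPS+IFN-γ) had the co-culture effect at rest (M0+iMSCs over M0) subtracted from it. The difference, given in log2 units, is called the interaction here. A positive interaction means that iMSCs raised a gene more, or lowered it less, under stimulation than at rest.

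All 4 groups were THP-1 cells, an established human monocytic leukaemia line, and each group had 4 libraries. All groups had first received 100 ng/mL PMA, a phorbol ester, for 48 h, after which they are called M0. The M0+LPS+IFN-γ+iMSCs group then received 100 ng/mL LPS of Porphyromonas gingivalis and 20 ng/mL IFN-γ for 48 h, with iMSCs in the upper chamber of a Transwell insert. The M0+LPS+IFN-γ group received the same LPS and IFN-γ without iMSCs. The M0+iMSCs group had iMSCs in the insert for 48 h and no stimulus, and the M0 group had neither. For M0 the labels give no time in culture after PMA. Extra culture time in the other groups therefore cannot be told apart from the effects measured against M0. THP-1 is a single tumour-derived line, so the libraries are not from different donors, and the labels do not say that libraries of a group were separate cultures. The p-values therefore measure the spread between these libraries, which may be technical.

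LPS is a bacterial cell-wall lipid sensed through Toll-like receptors, which activate NF-kB and the transcription of cytokines. IFN-γ signals through its own receptor and induces guanylate-binding proteins, chemokines and antigen presentation. Macrophages given both are often called M1. Mesenchymal stem cells release soluble mediators that can lower macrophage cytokine output and change growth, lipid handling and matrix remodelling, and an insert lets such mediators pass while it keeps the cell types apart.

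The libraries held 18200706 to 23227097 counts in M0+LPS+IFN-γ+iMSCs, 21002872 to 24368753 in M0+LPS+IFN-γ, 17336637 to 23806909 in M0+iMSCs and 20338546 to 24149246 in M0. Of 60664 genes in the deposited table, 15301 had enough counts to be tested. M0+LPS+IFN-γ replicate 4 stood apart: 470 of 7843 genes with at least 10 CPM (5.99%) differed at least 2-fold from the average of replicates 1 to 3 there, against 0 to 34 genes for any other library measured in the same way. Of those 470 genes, 387 (82.3%) lay on the side of the mean of M0+LPS+IFN-γ+iMSCs, 283 of the 470 being higher and 187 lower than in the other libraries of the group. The main counts are therefore given with and without that library. In M0+iMSCs, replicates 1 and 2 differed from replicates 3 and 4, and counts without either pair are in the closing section. CPM, the normalised read count used here, is scaled to library size with TMM factors. Of 12 macrophage markers, all had counts in every group, with summed levels of 5121 to 5345 CPM in M0+LPS+IFN-γ+iMSCs, 2972 to 5365 CPM in M0+LPS+IFN-γ, 2122 to 2287 CPM in M0+iMSCs and 2059 to 2187 CPM in M0. CD68, a lysosomal glycoprotein used to define macrophages, had 9, 21, 12 and 17 counts in those groups, in the same order, and was too low to be tested. These counts alone do not show that the cells lacked CD68 RNA, and the cause of the low count was not tested.

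iMSCs changed most of the tested genes in both states, and for most genes the size or the direction of the change differed by stimulation. The interaction passed an edgeR adjusted p of 0.05 for 9506 genes (62.1% of those tested), of which 4752 (31.1%) were positive and 4754 (31.1%) negative. For 4589 genes (30%) it was also at least 2-fold. In bulk libraries such as these, fewer cells of a type and less RNA per cell cannot be told apart. The co-culture effect itself passed in 11431 genes (74.7%) under stimulation, 5876 (38.4%) rising and 5555 (36.3%) falling. At rest it passed in 10681 genes (69.8%), 5544 (36.2%) rising and 5137 (33.6%) falling. The median over all tested genes was 0.02 for the interaction, 0.03 for the effect under stimulation and 0.03 at rest. Without M0+LPS+IFN-γ replicate 4 the interaction passed for 10232 genes (66.9%), 5248 (34.3%) positive and 4984 (32.6%) negative, and 9279 genes (60.6%) passed with the same sign in both fits, with 0 of opposite sign. The even split depended on the scaling between libraries. With library totals in place of TMM factors, the median interaction moved by 0.33 and 69.3% of 10137 called genes were positive.

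**Figure D1:**
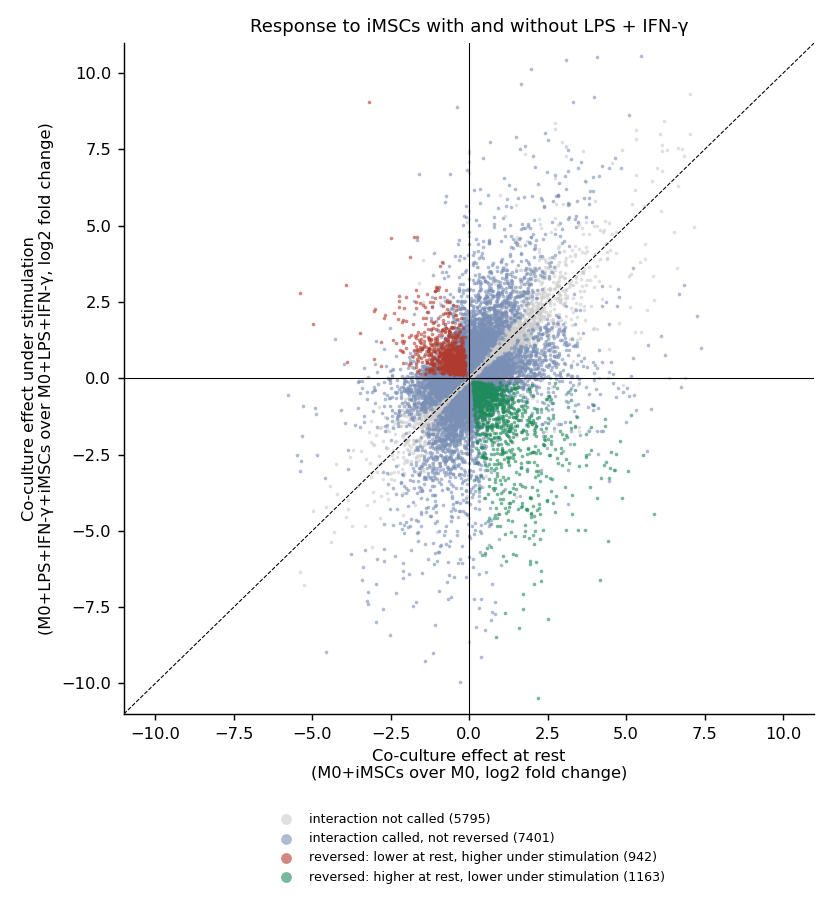
Each point is a tested gene, with its co-culture effect at rest on the x axis and under stimulation on the y axis (log2 fold changes). The dashed line marks equal effects, and the 942 red and 1163 green genes lie in the quadrants where iMSCs moved a gene in opposite directions.

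Among the 9506 genes, 2105 (13.8% of those tested) reversed: the co-culture effect passed the same threshold in both states, with opposite signs. For 942 genes (6.16%) iMSCs lowered expression at rest and raised it under stimulation. For 1163 genes (7.6%) they raised it at rest and lowered it under stimulation. This split depended on the scaling: with library totals in place of TMM factors, 1606 genes reversed upward and 762 downward under stimulation. Of the remaining genes with an interaction, 2432 passed under stimulation only and 1740 at rest only. A further 2049 moved the same way with a larger effect under stimulation, 1090 the same way with a larger effect at rest, and 90 passed in neither state alone. Without M0+LPS+IFN-γ replicate 4 there were 2531 reversals (16.5%), 1161 (7.59%) up and 1370 (8.95%) down under stimulation. In both fits 2031 genes (13.3%) reversed the same way, 903 (5.9%) up and 1128 (7.37%) down.

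Most reversals were of modest size, and the large ones were mostly genes that iMSCs raised at rest. The smaller of a gene's 2 effects was at least 2-fold (1 log2 unit) in 425 of the 2105 genes, 102 that rose and 323 that fell under stimulation. It was at least 4-fold (2 log2 units) in 101 genes, 12 that rose and 89 that fell. Among the 1163 genes, the median effect was -0.89 under stimulation and 0.70 at rest. By the definition of the class, only M0+iMSCs or M0+LPS+IFN-γ could be highest here, and only M0+LPS+IFN-γ+iMSCs or M0 lowest. M0+iMSCs had the highest mean for 834 of them (71.7%), against 25.1% of all tested genes. M0+LPS+IFN-γ+iMSCs had the lowest for 895 (77%), against 28.8% of all tested genes. Among the 942 genes, the median effect was 0.59 under stimulation and -0.56 at rest. In this class only M0+LPS+IFN-γ+iMSCs or M0 could be highest, and only M0+iMSCs or M0+LPS+IFN-γ lowest. M0+LPS+IFN-γ+iMSCs had the highest mean for 640 of them (67.9%), against 31.6% of all tested genes. M0+iMSCs had the lowest for 626 (66.5%), against 25.5% of all tested genes. Protein-coding genes made up 87.3% of the reversed genes, against 82.5% of those tested. Signs on a log scale and on a linear scale can differ. On differences of CPM in place of log2 ratios, 218 of the 9506 genes (2.29%) had the other sign. Reversals, whose effects have opposite signs, keep their sign on both scales by definition.

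**Figure D2:**
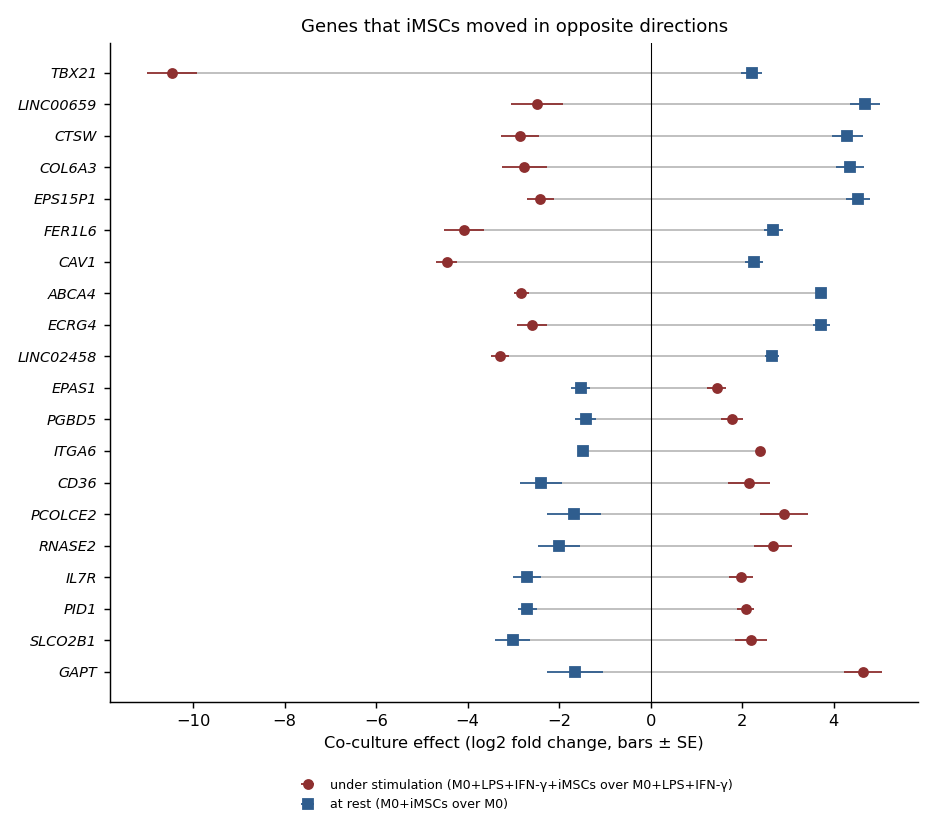
Co-culture effects (log2 fold change ± SE, n = 4 libraries a group) of the 10 largest reversals in each direction, with the effect under stimulation as circles and at rest as squares. The upper 10 genes fell under stimulation and rose at rest, the lower 10 did the opposite, and TBX21 rests on 1 count in M0+LPS+IFN-γ+iMSCs.

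Genes that reversed upward under stimulation included surface receptors, a transporter and granule proteins. CD36 (ENSG00000135218, chromosome 7, 80369575 to 80679277), a receptor for oxidised lipoproteins and fatty acids, had 534, 469, 457 and 590.3 CPM in M0+LPS+IFN-γ+iMSCs, against 57.9, 58.7, 60.2 and 287 CPM in M0+LPS+IFN-γ. At rest CD36 had 33.8, 29.3, 38.2 and 34.9 CPM in M0+iMSCs, against 176, 186, 178 and 179 CPM in M0. The groups did not overlap in either state, as was true of 65.9% of all tested genes under stimulation and 69% at rest, though replicate 4 of M0+LPS+IFN-γ was far above the other 3. The interaction of CD36 was 4.54 ± 0.65 (adjusted p = 4.68e-05), with effects of 2.15 under stimulation and -2.4 at rest, and 5.52 without that replicate.

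IL7R (ENSG00000168685, chromosome 5, 35852695 to 35879603), the receptor for interleukin-7, showed the same order of groups. It had 60.4, 64.9, 66.7 and 80.8 CPM in M0+LPS+IFN-γ+iMSCs, against 11.7, 14.2, 11.8 and 31.9 CPM in M0+LPS+IFN-γ. Resting IL7R levels were 4.0, 4.96, 2.76 and 3.98 CPM in M0+iMSCs, against 25, 24.5, 25.1 and 26.9 CPM in M0. M0+LPS+IFN-γ replicate 4 was again the highest of its group, still below every co-cultured library. The interaction was 4.67 ± 0.40 (adjusted p = 1.94e-07), and 5.14 without that replicate. SLCO2B1, an organic anion transporter, averaged 35.5 ± 3.55 CPM in M0+LPS+IFN-γ+iMSCs, against 7.8 ± 6.49 CPM in M0+LPS+IFN-γ, and 3.11 ± 0.290 CPM in M0+iMSCs, against 25.3 ± 0.568 CPM in M0 (SD, n = 4 each), with an interaction of 5.21 ± 0.51 (adjusted p = 9.43e-07). RNASE2, a granule ribonuclease of eosinophils and myeloid precursors, averaged 68.9 ± 5.15 CPM in M0+LPS+IFN-γ+iMSCs, against 10.9 ± 10.4 CPM in M0+LPS+IFN-γ, and 3.18 ± 0.589 CPM in M0+iMSCs, against 12.8 ± 0.843 CPM in M0, with an interaction of 4.67 ± 0.62 (adjusted p = 2.08e-05). PID1, an adaptor with a phosphotyrosine-binding domain, had effects of 2.08 under stimulation and -2.7 at rest. For PCOLCE2, an enhancer of procollagen processing, they were 2.91 and -1.68, and 4.28 under stimulation without M0+LPS+IFN-γ replicate 4. Its effect at rest lost its call without M0+iMSCs replicate 3 (adjusted p = 0.057) or replicate 4 (adjusted p = 0.052). ITGA6, a laminin-binding integrin chain, had 2.39 and -1.48. EPAS1, the hypoxia-inducible factor HIF-2α, had 1.45 and -1.53, and PGBD5, a transposase-derived gene, had 1.77 and -1.42. The tenth, GAPT, is described with the largest interactions.

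The largest reversals downward included a collagen, a caveolar protein and a T-box factor. COL6A3 (ENSG00000163359, chromosome 2, 237324003 to 237414328), a chain of collagen VI and one of the mesenchymal markers, had 0.643, 0.612, 0.713 and 0.535 CPM in M0+LPS+IFN-γ+iMSCs, against 5.48, 5.6, 5.42 and 0.519 CPM in M0+LPS+IFN-γ. At rest COL6A3 had 279, 287, 272 and 290.4 CPM in M0+iMSCs, against 13.2, 14, 12.9 and 15.2 CPM in M0. M0+LPS+IFN-γ replicate 4, at 0.519 CPM, lay below the lowest co-cultured library, so the groups overlapped under stimulation, whereas at rest they did not. The interaction was -7.11 ± 0.55 (adjusted p = 1.00e-07) and -7.47 without that replicate. The mesenchymal markers are given as a whole list with the matrix genes.

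CAV1, the main protein of caveolae, averaged 6.31 ± 0.656 CPM in M0+LPS+IFN-γ+iMSCs, against 139 ± 45 CPM in M0+LPS+IFN-γ, and 653 ± 63.2 CPM in M0+iMSCs, against 136 ± 11.4 CPM in M0 (SD, n = 4 each), with an interaction of -6.72 ± 0.31 (adjusted p = 3.01e-10). TBX21 (ENSG00000073861, chromosome 17, 47733236 to 47746122), a T-box transcription factor that directs type 1 lymphocyte responses, had 0, 0.0408, 0 and 0 CPM in M0+LPS+IFN-γ+iMSCs, against 26.9, 30.3, 25 and 10.7 CPM in M0+LPS+IFN-γ. Resting TBX21 levels were 60.8, 64.6, 48.5 and 50.5 CPM in M0+iMSCs, against 12.8, 11.9, 11.9 and 11.9 CPM in M0. The M0+LPS+IFN-γ+iMSCs libraries held 1 count in all, against 1740 counts in M0+LPS+IFN-γ. The ratio of M0+LPS+IFN-γ over M0+LPS+IFN-γ+iMSCs was 2196, with a 95% exact counting interval of 394 to 86782. The fitted interaction of -12.67 depends on how the near-absent counts are smoothed. CTSW, a papain-like protease of lymphocytes, had effects of -2.85 under stimulation and 4.3 at rest. ABCA4, a lipid flippase known from photoreceptors, had -2.83 and 3.73. FER1L6, a ferlin family gene, had -4.08 and 2.68, and ECRG4, which encodes a secreted peptide precursor, had -2.59 and 3.73. The remaining 3 were the non-coding LINC02458 and LINC00659 and the pseudogene EPS15P1, whose reads may be shared with its parent gene.

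Several of the largest positive interactions belonged to surface receptors of myeloid cells, which iMSCs raised under stimulation. ADGRE1 (ENSG00000174837, chromosome 19, 6887566 to 6940459), the human counterpart of the mouse macrophage marker F4/80, had 36.9, 40.6, 38.7 and 33.4 CPM in M0+LPS+IFN-γ+iMSCs, against 0.286, 0.519, 0.452 and 0.807 CPM in M0+LPS+IFN-γ. At rest ADGRE1 had 0.253, 0.216, 0.0861 and 0.193 CPM in M0+iMSCs, against 0.149, 0.200, 0.210 and 0.0968 CPM in M0. It was near 0 in every group other than M0+LPS+IFN-γ+iMSCs, whose libraries all stood far above the rest. Its interaction was 6.01 ± 0.57 (adjusted p = 8.25e-08).

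FCGR3A (ENSG00000203747, chromosome 1, 161541759 to 161550737), the low-affinity IgG receptor CD16, had 127, 126, 117 and 162 CPM in M0+LPS+IFN-γ+iMSCs, against 1.66, 1.87, 2.21 and 17.6 CPM in M0+LPS+IFN-γ. Resting FCGR3A levels were 2.95, 2.54, 3.66 and 5.15 CPM in M0+iMSCs, against 4.93, 4.81, 3.86 and 4.7 CPM in M0, where the groups overlapped and the effect of -0.33 did not pass the threshold (adjusted p = 0.662). The stimulated groups did not overlap, although M0+LPS+IFN-γ replicate 4 was several times above the other libraries of its group. The interaction was 4.87 ± 0.87 (adjusted p = 2.98e-04) and 6.43 without that replicate. Its paralogue FCGR3B can share reads with it, so the level is uncertain.

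FPR1 (ENSG00000171051, chromosome 19, 51745172 to 51804110), the receptor for bacterial formyl peptides, had 56.4, 61.9, 56.3 and 92.5 CPM in M0+LPS+IFN-γ+iMSCs, against 0.286, 0.311, 0.301 and 0.461 CPM in M0+LPS+IFN-γ. At rest it was barely counted, with 0.126, 0.108, 0.301 and 0.155 CPM in M0+iMSCs, against 0.0498, 0.0501, 0 and 0.0968 CPM in M0. Its interaction of 5.84 ± 1.36 (adjusted p = 0.00139) rests on those few counts, and without M0+LPS+IFN-γ replicate 4 it was 6.0 (adjusted p = 0.017). ADGRE3, a relative of ADGRE1, had an interaction of 5.24, with effects of 5.03 under stimulation and -0.21 at rest. GAPT, a transmembrane adaptor, averaged 28.6 ± 1.88 CPM in M0+LPS+IFN-γ+iMSCs, against 1.18 ± 1.45 CPM in M0+LPS+IFN-γ, and 0.409 ± 0.133 CPM in M0+iMSCs, against 1.31 ± 0.284 CPM in M0 (SD, n = 4 each). Its effect at rest of -1.65 (adjusted p = 0.0264) lost its call without M0 replicate 1 or without any 1 of M0+iMSCs replicates 1, 2 and 3 (adjusted p of 0.051 to 0.067). MYBL2, a transcription factor that drives cell-cycle genes, averaged 53.7 ± 12.4 CPM in M0+LPS+IFN-γ+iMSCs, against 0.0934 ± 0.0812 CPM in M0+LPS+IFN-γ, and 7.06 ± 3.16 CPM in M0+iMSCs, against 0.693 ± 0.297 CPM in M0. SERPINF1, a secreted serpin that limits blood vessel growth, had effects of 3.4 and -1.15 under stimulation and at rest. The second did not pass over all libraries.

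The largest negative interactions included secreted factors and tissue-remodelling genes, all lowered by iMSCs under stimulation. At rest, 7 of the 12 rose and MMP3 fell, whereas the effects at rest of SERPINB2 and STC1 did not pass over all libraries. AREG (ENSG00000109321, chromosome 4, 74445136 to 74455005), an epidermal growth factor receptor ligand, had 7.35, 6.57, 5.1 and 19.9 CPM in M0+LPS+IFN-γ+iMSCs, against 614, 654, 597 and 246 CPM in M0+LPS+IFN-γ. At rest AREG had 931, 1069, 888 and 945 CPM in M0+iMSCs, against 332, 337, 355 and 353 CPM in M0. Replicate 4 of both stimulated groups stood apart, and neither pair of groups overlapped. The interaction was -7.26 ± 0.55 (adjusted p = 1.17e-07) and -7.51 without M0+LPS+IFN-γ replicate 4. MMP3, stromelysin-1, averaged 0.918 ± 0.0606 CPM in M0+LPS+IFN-γ+iMSCs, against 573 ± 282 CPM in M0+LPS+IFN-γ, and 46.2 ± 15 CPM in M0+iMSCs, against 121 ± 5.19 CPM in M0 (SD, n = 4 each). SERPINB2, a plasminogen activator inhibitor of macrophages, averaged 7.7 ± 1.4 CPM in M0+LPS+IFN-γ+iMSCs, against 1537 ± 857 CPM in M0+LPS+IFN-γ, and 498 ± 145 CPM in M0+iMSCs, against 303 ± 23.7 CPM in M0. IL36B, an IL-1 family cytokine, had effects of -5.42 under stimulation and 2.08 at rest. STC1, a secreted glycoprotein hormone, had -6.73 and 0.73. TFPI2, a serine protease inhibitor, had -7.24 and 0.16, and CEMIP, a hyaluronan-binding protein, had -8.14 and 0.21. XIRP1, an actin-binding protein of striated muscle, had -7.05 and 1.73. MDGA1, an adhesion protein of neurons, had -7.68 and 1.15, and ARNT2, a partner of bHLH-PAS factors, had -6.74 and 2.06.

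Promoters of 4 of these genes are shown because they hold the letters of a known regulatory motif. They are the 250 bases before the first-listed RefSeq start (GRCh38.p14), read on the strand of the gene, with motif matches in capitals. Letters searched on both strands were TGANTCA for AP-1, CACGTG for the E-box and TTTGAA for the cell-cycle homology region (CHR), in which TTCAAA is the reverse strand.

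XIRP1 (chr3:39192596-39192845, minus strand) and SERPINB2 (chr18:63887455-63887704, plus strand), which iMSCs lowered under stimulation, each hold 1 AP-1 match, and GAPT (chr5:58491185-58491434, plus strand) holds 1 CHR match on the reverse strand and MYBL2 (chr20:43666864-43667113, plus strand) 1 E-box.
XIRP1: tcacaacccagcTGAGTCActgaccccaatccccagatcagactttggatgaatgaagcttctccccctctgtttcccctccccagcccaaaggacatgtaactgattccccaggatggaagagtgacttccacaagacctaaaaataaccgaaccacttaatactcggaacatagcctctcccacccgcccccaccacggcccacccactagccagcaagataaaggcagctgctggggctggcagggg
SERPINB2: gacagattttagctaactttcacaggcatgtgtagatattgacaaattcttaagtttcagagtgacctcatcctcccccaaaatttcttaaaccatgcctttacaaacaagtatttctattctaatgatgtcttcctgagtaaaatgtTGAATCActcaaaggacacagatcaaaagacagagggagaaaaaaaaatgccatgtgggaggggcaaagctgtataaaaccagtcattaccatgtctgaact
GAPT: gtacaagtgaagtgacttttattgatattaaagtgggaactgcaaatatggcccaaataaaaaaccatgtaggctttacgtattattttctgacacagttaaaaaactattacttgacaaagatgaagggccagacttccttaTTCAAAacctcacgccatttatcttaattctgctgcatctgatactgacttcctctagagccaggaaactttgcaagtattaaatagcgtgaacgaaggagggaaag
MYBL2: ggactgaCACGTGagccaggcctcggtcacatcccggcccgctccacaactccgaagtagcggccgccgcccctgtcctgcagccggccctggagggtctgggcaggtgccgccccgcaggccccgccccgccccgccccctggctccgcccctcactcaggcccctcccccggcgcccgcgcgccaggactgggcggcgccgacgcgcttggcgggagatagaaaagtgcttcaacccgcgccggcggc

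Of all 27305 promoters of that length, 6.6% hold the AP-1 letters, 6.49% the E-box and 13.6% the CHR. A match is only a description of the sequence. Only 72.8% of the reversed genes had a listed promoter, so motif shares among them are not given.

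Most inflammatory cytokines had a lower co-culture effect under stimulation than at rest. For the lists that follow, members are named by the smallest interaction p. Where a pair of effects is given, the first is under stimulation and the second at rest. Counts of members are to be set beside the 31.1% of all tested genes in each direction. Without M0+LPS+IFN-γ replicate 4 those shares were 34.3% positive and 32.6% negative. Of 20 tested members, 15 had a negative and 3 a positive interaction, against 31.1% of all genes in each direction, and the median was -2.84 (-2.97 without M0+LPS+IFN-γ replicate 4) against 0.02 for all genes. Under stimulation 16 fell and 2 rose. At rest 8 fell and 6 rose. TNF (ENSG00000232810, chromosome 6, 31575565 to 31578336), the prototype macrophage cytokine, had 52.8, 34.4, 39.7 and 26.5 CPM in M0+LPS+IFN-γ+iMSCs, against 1508, 1414, 1359 and 952 CPM in M0+LPS+IFN-γ. Resting TNF levels were 241, 249, 159 and 182 CPM in M0+iMSCs, against 103, 90.6, 93.3 and 86.9 CPM in M0. The groups did not overlap in either state, and the direction was opposite: TNF fell under stimulation (log2 fold change -5.09) and rose at rest (1.15). The interaction was -6.24 ± 0.30 (adjusted p = 4.33e-10).

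IL1RN (ENSG00000136689, chromosome 2, 113107214 to 113134016), the natural antagonist of the IL-1 receptor, reversed in the same way. It had 273, 221, 257 and 343 CPM in M0+LPS+IFN-γ+iMSCs, against 1255, 1212, 1175 and 1274 CPM in M0+LPS+IFN-γ. At rest IL1RN had 5703, 5255, 5756 and 6117 CPM in M0+iMSCs, against 3037, 3049.8, 2895 and 2973 CPM in M0. All 4 groups were separate, and the interaction was -3.1 ± 0.14 (adjusted p = 7.41e-12). CSF1 (ENSG00000184371, chromosome 1, 109910242 to 109930992), the growth factor of the monocyte lineage, had 19.8, 11.8, 16.5 and 14.7 CPM in M0+LPS+IFN-γ+iMSCs, against 279, 256, 238 and 174 CPM in M0+LPS+IFN-γ. Resting CSF1 levels were 2033, 1808, 1836 and 1914 CPM in M0+iMSCs, against 1379.8, 1378, 1276 and 1262 CPM in M0. Its libraries were ordered the same way, M0+iMSCs highest and M0+LPS+IFN-γ+iMSCs lowest, with an interaction of -4.43 ± 0.20 (adjusted p = 4.53e-11).

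OSM (ENSG00000099985, chromosome 22, 30262829 to 30266851), oncostatin M, an IL-6 family cytokine, was the member that reversed upward. It had 4.55, 4.0, 4.05 and 3.21 CPM in M0+LPS+IFN-γ+iMSCs, against 0.685, 0.726, 1.2 and 0.634 CPM in M0+LPS+IFN-γ. At rest OSM had 0.505, 0.432, 0.431 and 0.387 CPM in M0+iMSCs, against 3.59, 4.26, 3.06 and 3.44 CPM in M0. The co-cultured libraries were all above M0+LPS+IFN-γ under stimulation and all below M0 at rest, at low levels throughout. The interaction was 5.28 ± 0.28 (adjusted p = 7.79e-11). IL1B, IL-1β, and IL6 fell in both states, by more under stimulation: the effects were -2.63 and -0.26 for IL1B and -4.75 and -2.2 for IL6, under stimulation and at rest. IL10, an anti-inflammatory cytokine, had an interaction of -1.52 ± 0.35 (adjusted p = 0.00112). EBI3, a subunit shared by IL-27 and IL-35, had effects of -0.78 under stimulation and 1.8 at rest.

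**Figure D3:**
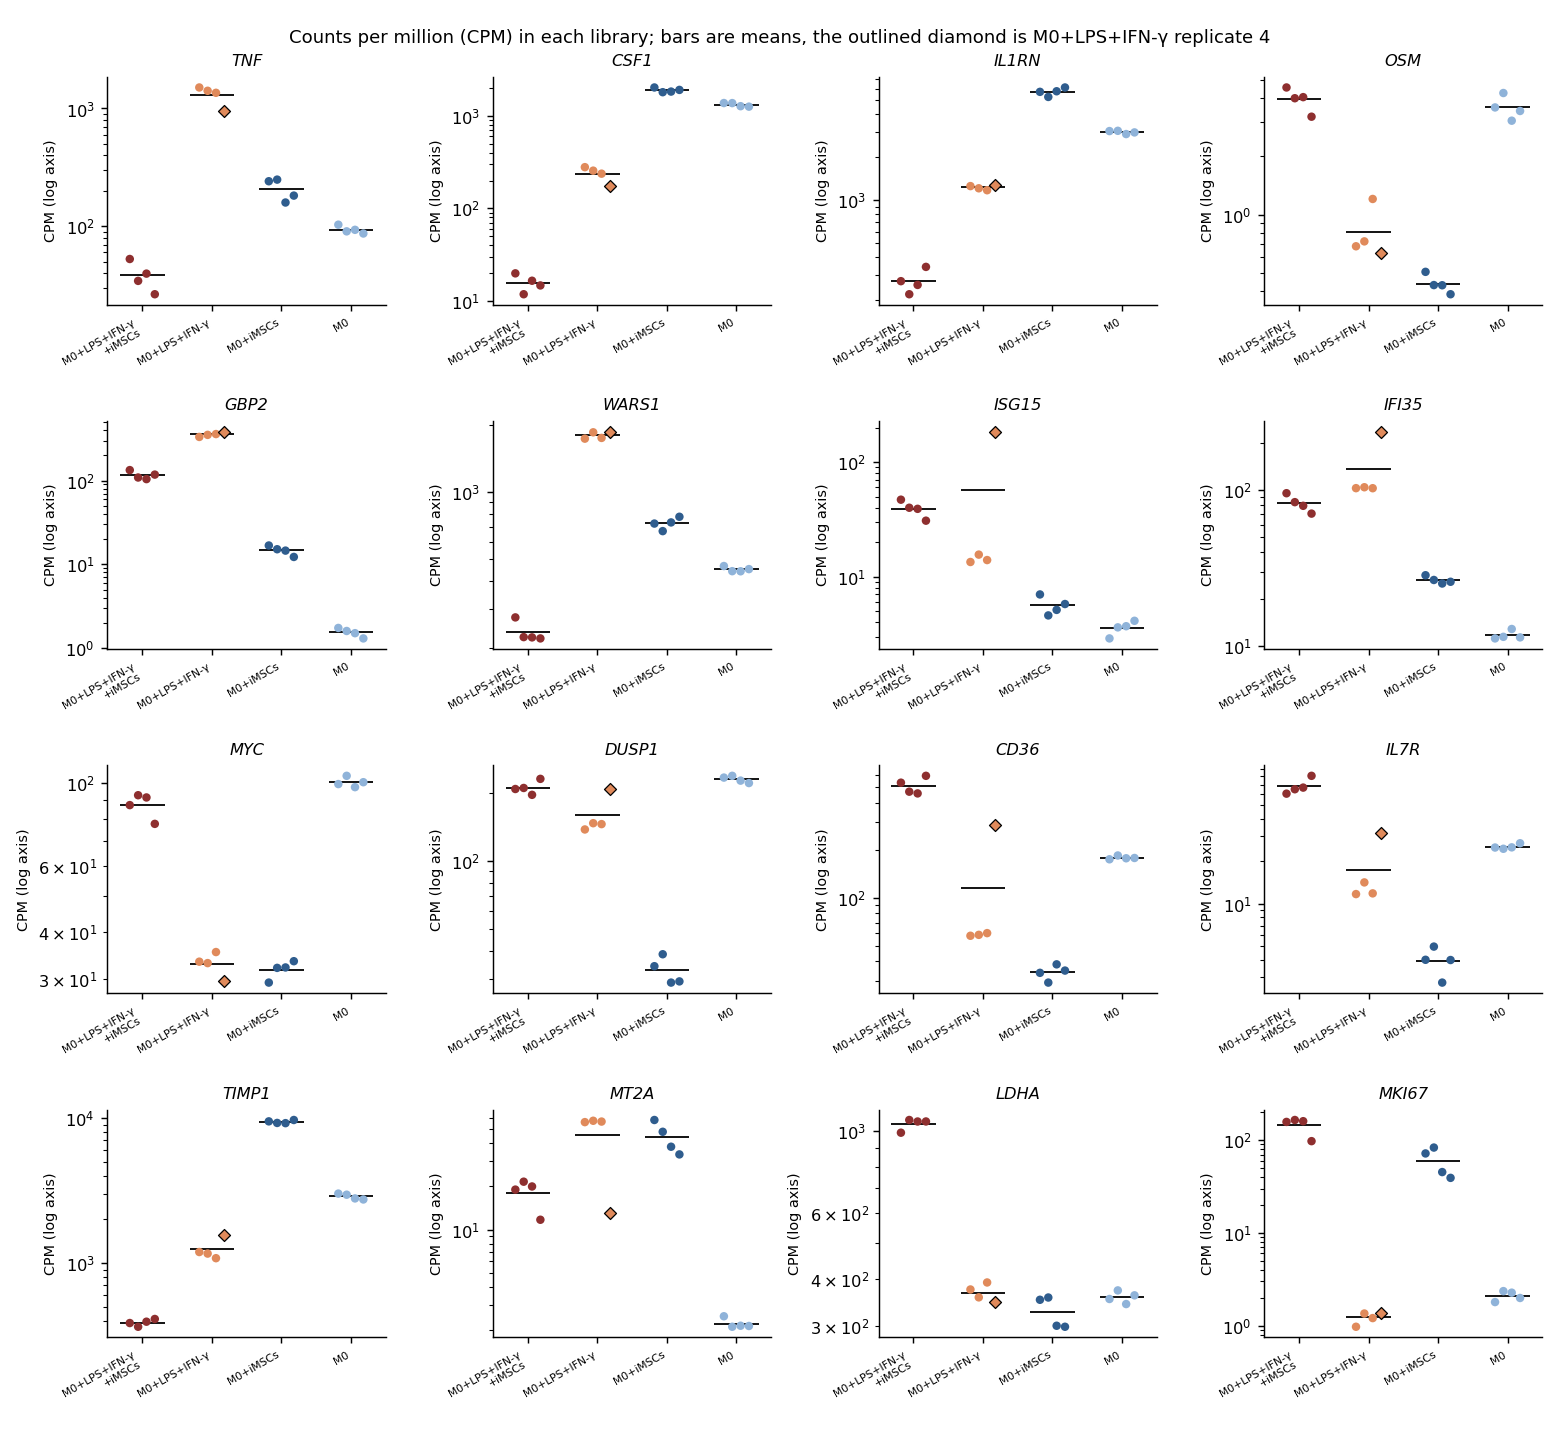
CPM of 16 genes in each library (points on a log axis, the diamond being M0+LPS+IFN-γ replicate 4), with the mean of the 4 libraries as a line and the groups in the order M0+LPS+IFN-γ+iMSCs, M0+LPS+IFN-γ, M0+iMSCs and M0. TNF fell under stimulation and rose at rest, OSM and MYC did the opposite, and M0+LPS+IFN-γ replicate 4 lies apart for genes such as ISG15 and CD36.

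Chemokines, which attract leukocytes, gave a weaker picture. Of 21 tested, 8 had a negative and 1 a positive interaction, with a median of -0.92 (9, 3 and -0.36 without M0+LPS+IFN-γ replicate 4). CXCL8, a neutrophil attractant, fell in both states, by more under stimulation (-2.94) than at rest (-1.34). CXCL2, another neutrophil attractant, had effects of -3.19 and -1.32. CCL20, which attracts dendritic and Th17 cells, reversed, with effects of -1.83 under stimulation and 0.45 at rest. CCL1, an attractant of CCR8-bearing cells, also reversed, with -1.21 and 5.17. CCL2, the main monocyte attractant, had an interaction of -0.47 ± 0.43 (adjusted p = 0.36), which did not pass. The interaction of CXCL9 could not be measured because it had 0 counts in both unstimulated groups, and for CXCL10 it was -1.0 ± 6.80 (adjusted p = 0.909), with 1 count in M0+iMSCs.

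**Figure D4:**
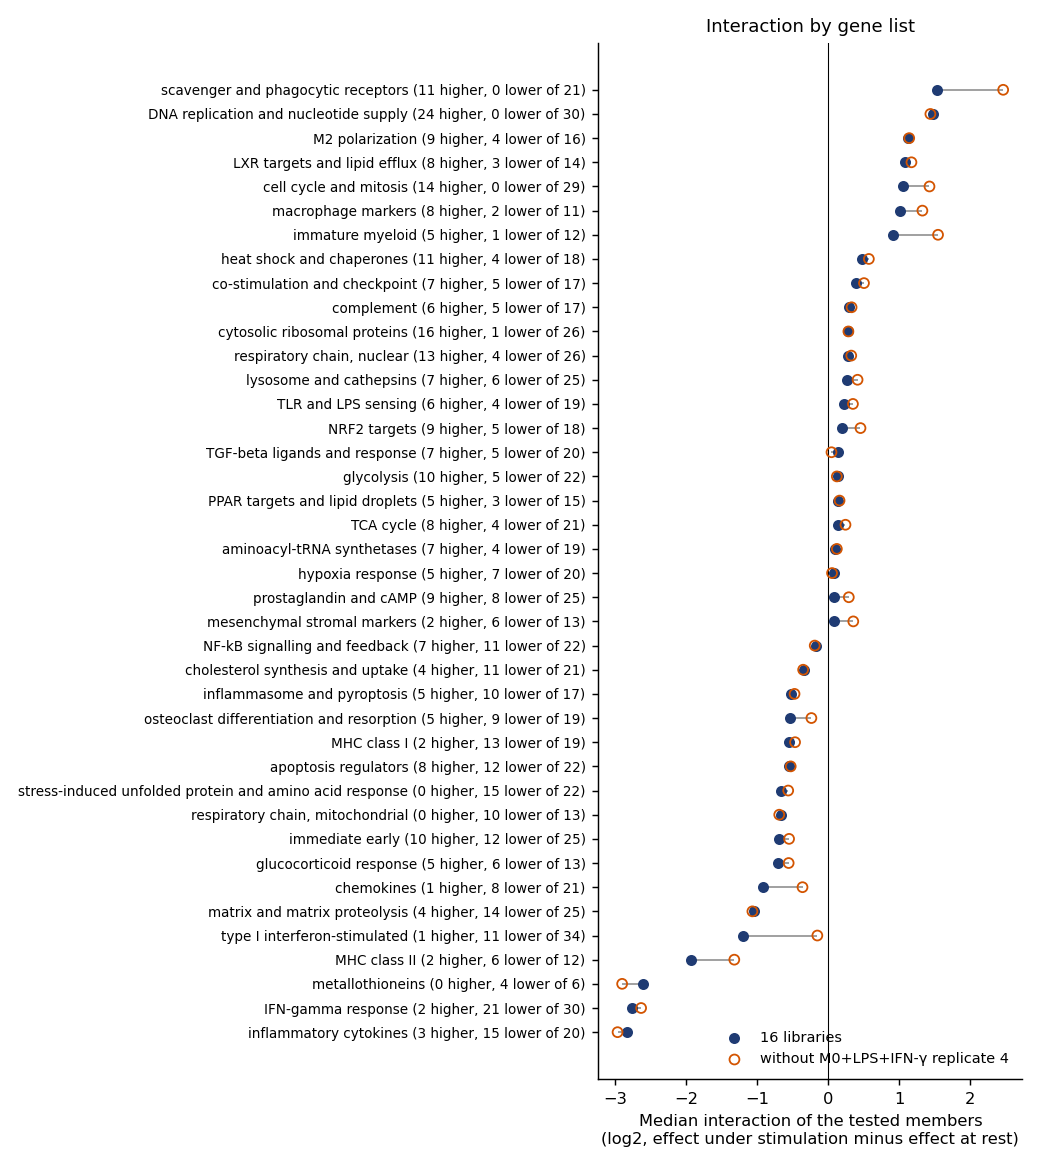
Median interaction (log2) of the tested members of each of 40 gene lists, over all 16 libraries and without M0+LPS+IFN-γ replicate 4. Cytokine and IFN-γ response lists lie lowest among the lists of at least 10 tested genes, and the type I interferon list moves the most toward 0 without that library.

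By count, the IFN-γ response held more reversals than any other of the 40 lists. Of its 30 tested genes, 12 fell with iMSCs in stimulated cells and rose in resting cells, against 7.6% of all tested genes. The lists differ in size, and some smaller ones had similar shares. Among 14 LXR targets 4 reversed upward and 2 downward, and among 13 mesenchymal stromal markers 5 reversed downward. Of all tested genes, 13.8% reversed either way. Of 30 tested, 21 had a negative and 2 a positive interaction, with a median of -2.77 (-2.64 without M0+LPS+IFN-γ replicate 4). Under stimulation 22 fell and 4 rose (median -1.33). At rest 17 rose and 3 fell (median 1.32). None reversed upward over all libraries, and without M0+LPS+IFN-γ replicate 4 the reversals in either direction numbered 14. WARS1 (ENSG00000140105, chromosome 14, 100333790 to 100376805), an IFN-γ-induced tryptophanyl-tRNA synthetase, had 275, 224, 224 and 221 CPM in M0+LPS+IFN-γ+iMSCs, against 1734, 1851, 1747 and 1863 CPM in M0+LPS+IFN-γ. Resting WARS1 levels were 723, 669, 731 and 775 CPM in M0+iMSCs, against 467, 442, 442 and 452 CPM in M0. None of the 4 groups overlapped, and the interaction was -3.61 ± 0.10 (adjusted p = 3.04e-14).

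GBP2 (ENSG00000162645, chromosome 1, 89106132 to 89150456), a guanylate-binding GTPase of antimicrobial defence, had 133, 109, 104 and 118 CPM in M0+LPS+IFN-γ+iMSCs, against 332, 351, 359 and 384 CPM in M0+LPS+IFN-γ. At rest GBP2 had 16.8, 15.2, 14.6 and 12.3 CPM in M0+iMSCs, against 1.74, 1.6, 1.51 and 1.31 CPM in M0. None of the 4 groups overlapped, and M0+iMSCs lay far above M0 and far below both stimulated groups. The interaction was -4.87 ± 0.15 (adjusted p = 1.29e-13). GBP3, a close relative with which reads can be shared, had effects of -1.3 under stimulation and 2.66 at rest. BATF2, an IFN-γ-induced transcription factor, had -3.06 and 1.51. IRF1, a transcription factor induced by IFN-γ, fell in both states, with effects of -2.14 and -0.64 and an interaction of -1.5 ± 0.10 (adjusted p = 1.27e-09). IDO1, the tryptophan-degrading enzyme, had an interaction of -4.03 ± 3.05 (adjusted p = 0.269), with few counts in the unstimulated groups.

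The type I interferon list changed when M0+LPS+IFN-γ replicate 4 was left out. Over all libraries 11 of 34 tested members had a negative and 1 a positive interaction, with a median of -1.20. Without that library there were 11 negative and 7 positive, with a median of -0.15. In both fits the negative share was near that of all tested genes (31.1% with that library and 32.6% without it), and the positive share was below it. The co-culture effect under stimulation passed for 1 rising and 5 falling members (median -0.06) over all libraries, and for 28 rising and 3 falling (median 1.15) without it. At rest 12 rose and 0 fell (median 1.15). The rising share was near the 36.2% of all tested genes that rose at rest, while 33.6% of all tested genes fell.

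ISG15 (ENSG00000187608, chromosome 1, 1001138 to 1014540), a ubiquitin-like antiviral protein, had 47, 39.9, 39.1 and 30.8 CPM in M0+LPS+IFN-γ+iMSCs, against 13.4, 15.6, 13.9 and 184 CPM in M0+LPS+IFN-γ. Resting ISG15 levels were 6.99, 4.59, 5.12 and 5.76 CPM in M0+iMSCs, against 2.89, 3.61, 3.69 and 4.11 CPM in M0. M0+LPS+IFN-γ replicate 4 lay above every co-cultured library, whereas the other 3 libraries of its group lay below all of them. Its interaction was -1.19 ± 1.14 (adjusted p = 0.386) over all libraries and 0.79 (adjusted p = 0.003) without that replicate. OAS3 (ENSG00000111331, chromosome 12, 112938051 to 112976460), an antiviral oligoadenylate synthetase, had 669.5, 589, 579 and 447 CPM in M0+LPS+IFN-γ+iMSCs, against 178, 165, 163 and 1175 CPM in M0+LPS+IFN-γ. At rest OAS3 had 58, 37.1, 46.9 and 37.8 CPM in M0+iMSCs, against 31.1, 29.6, 30.8 and 33.7 CPM in M0. The same library stood highest. The interaction was -0.08 ± 0.79 (adjusted p = 0.939) over all libraries and 1.23 (adjusted p = 1.89e-04) without it.

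IFI35 (ENSG00000068079, chromosome 17, 43006740 to 43014456), an interferon-induced leucine zipper protein, had a negative interaction in both fits. It had 95.5, 83.7, 79.3 and 70.7 CPM in M0+LPS+IFN-γ+iMSCs, against 103, 104, 103 and 237 CPM in M0+LPS+IFN-γ. Resting IFI35 levels were 28.5, 26.5, 25.2 and 25.8 CPM in M0+iMSCs, against 11.2, 11.5, 12.9 and 11.4 CPM in M0. Under stimulation every co-cultured library was below M0+LPS+IFN-γ, of which replicate 4 was far above the other 3, and at rest every co-cultured library was above M0. The interaction was -1.91 ± 0.34 (adjusted p = 2.26e-04) and -1.5 without M0+LPS+IFN-γ replicate 4. The effect on IFI35 under stimulation was -0.73 and -0.33 in those fits. IRF7, the factor that amplifies type I interferon, had effects of -0.81 under stimulation and 1.22 at rest, and without that library the first was -0.20 and did not pass (adjusted p = 0.0846). PARP9, which acts with DTX3L in interferon signalling, had -0.01 (0.41 without that library) and 1.39, and DTX3L had -0.55 and 0.16. Paralogues of the OAS and IFIT families can share reads, so their levels are uncertain.

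**Figure D5:**
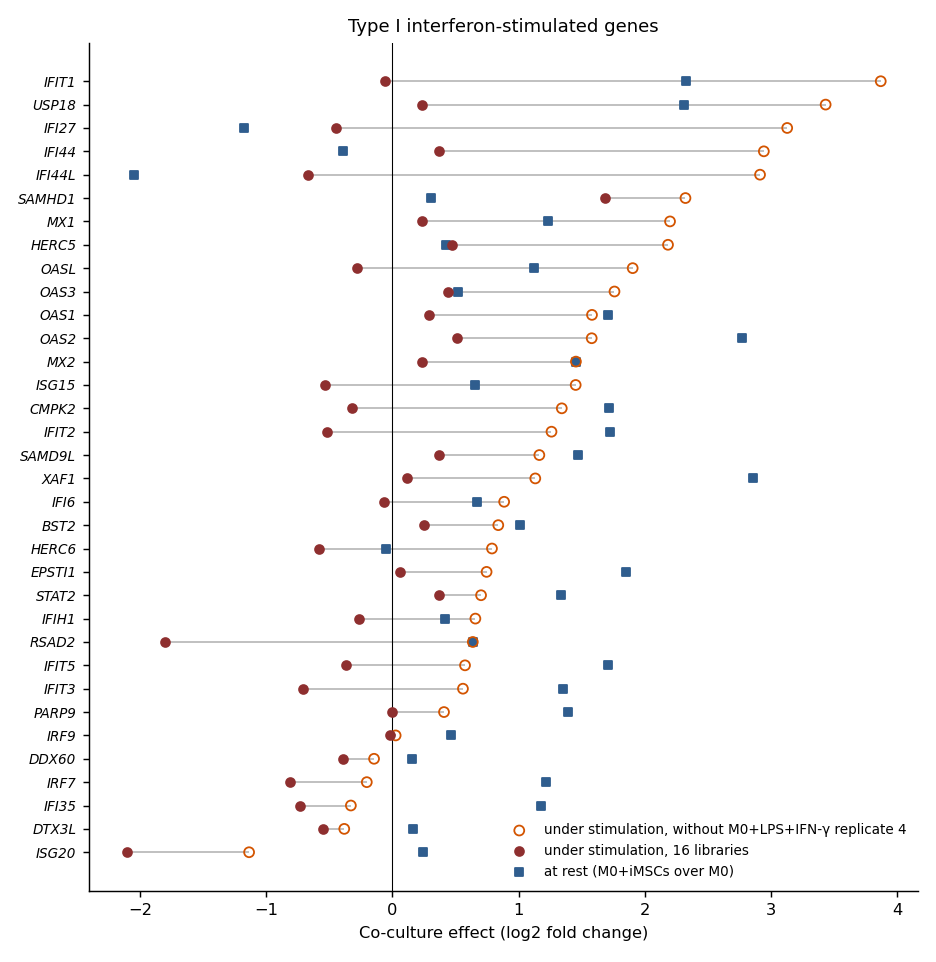
Co-culture effects (log2 fold change) of the tested type I interferon-stimulated genes under stimulation, with and without M0+LPS+IFN-γ replicate 4, and at rest. Without that library 28 of 34 genes rose under stimulation, against 1 with it.

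Promoters of 4 interferon-induced genes are shown, chosen after their values were seen, because they carry the letters to which interferon factors are known to bind. ISG15, OAS3 and EPSTI1, an interferon-induced epithelial-stromal gene, are joined by GBP1, a guanylate-binding protein of the IFN-γ list. The letters were GAAA, any 2 bases and GAAA for the interferon-stimulated response element (ISRE), TTC, any 3 bases and GAA for the gamma-activated sequence (GAS), and GGGA, any base and TTTCC for NF-kB, on both strands. GBP1 averaged 341 ± 64.7 CPM in M0+LPS+IFN-γ+iMSCs, against 876 ± 167 CPM in M0+LPS+IFN-γ, and 3.4 ± 0.682 CPM in M0+iMSCs, against 1.14 ± 0.169 CPM in M0 (SD, n = 4 each). EPSTI1 had 97, 78.7, 78.4 and 71.6 CPM in M0+LPS+IFN-γ+iMSCs, against 48, 49.2, 48.3 and 167 CPM in M0+LPS+IFN-γ. At rest EPSTI1 had 17.9, 14.1, 18 and 16.6 CPM in M0+iMSCs, against 4.18, 4.16, 4.78 and 5.28 CPM in M0. M0+LPS+IFN-γ replicate 4 lay above every co-cultured library and the other 3 of its group below all of them. The effect on EPSTI1 under stimulation was 0.06 (adjusted p = 0.881) over all libraries and 0.75 (adjusted p = 1.86e-07) without that replicate, and the interaction was -1.79 and -1.11.

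ISG15 (chr1:1013247-1013496, plus strand) holds 2 overlapping ISRE matches, OAS3 (chr12:112938224-112938473, plus strand) 2 ISRE and 1 NF-kB match, EPSTI1 (chr13:42992242-42992491, minus strand) a GAS overlapping an ISRE, and GBP1 (chr1:89065209-89065458, minus strand) 1 ISRE on the reverse strand and 2 CHR matches.
ISG15: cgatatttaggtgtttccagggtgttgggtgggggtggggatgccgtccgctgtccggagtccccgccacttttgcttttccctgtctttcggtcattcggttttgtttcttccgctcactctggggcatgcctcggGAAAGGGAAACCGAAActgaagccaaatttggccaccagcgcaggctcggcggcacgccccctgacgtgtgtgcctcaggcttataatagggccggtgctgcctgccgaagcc
OAS3: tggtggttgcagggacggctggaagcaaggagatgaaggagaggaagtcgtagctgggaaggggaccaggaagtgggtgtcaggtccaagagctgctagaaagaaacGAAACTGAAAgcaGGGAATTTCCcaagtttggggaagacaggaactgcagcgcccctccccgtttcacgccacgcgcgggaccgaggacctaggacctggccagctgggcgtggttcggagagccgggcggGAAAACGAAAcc
EPSTI1: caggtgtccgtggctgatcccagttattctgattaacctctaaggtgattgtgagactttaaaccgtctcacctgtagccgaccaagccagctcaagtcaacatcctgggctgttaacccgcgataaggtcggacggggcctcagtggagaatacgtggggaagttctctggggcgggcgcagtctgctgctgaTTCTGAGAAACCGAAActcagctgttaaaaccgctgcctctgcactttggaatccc
GBP1: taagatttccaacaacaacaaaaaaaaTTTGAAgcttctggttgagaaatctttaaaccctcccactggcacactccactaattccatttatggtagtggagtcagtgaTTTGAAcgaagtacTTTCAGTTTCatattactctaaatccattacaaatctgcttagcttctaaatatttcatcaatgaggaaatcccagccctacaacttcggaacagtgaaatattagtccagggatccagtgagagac

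The ISRE letters stood in 15 of 28 listed promoters of the type I list (53.6%), against 3.07% of all 27305 promoters. The GAS letters stood in 6.78% of all promoters and the NF-kB letters in 0.546%. NF-kB letters were in 5 of 20 promoters (25%) of the NF-kB list.

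Antigen presentation genes had mostly negative interactions too. Of 19 MHC class I genes tested, 13 had a negative and 2 a positive interaction (12 and 4 without M0+LPS+IFN-γ replicate 4), with a median of -0.55, and 4 reversed downward. HLA-E, a ligand of NK cell receptors, had effects of -1.3 under stimulation and 0.43 at rest, and TAP1, the peptide transporter, had -1.3 and 0.62. HLA-F had 0.02 and 2.05. PSMB9, an immunoproteasome subunit, had -0.25 and 1.57. Of 12 MHC class II genes tested, 6 had a negative and 2 a positive interaction (median -1.94, and -1.32 without M0+LPS+IFN-γ replicate 4). HLA-DRB1 had effects of -0.35 and 1.83, HLA-DQB1 had -0.88 and 3.97, and HLA-DMA, which loads peptides, had -0.30 and 1.72. IFI30, a lysosomal thiol reductase, went the other way, with an interaction of 1.82 ± 0.49 (adjusted p = 0.00374). HLA genes are near-identical to each other and polymorphic, so their counts are uncertain. Without M0+LPS+IFN-γ replicate 4 the effects under stimulation were 0.24 for HLA-F, 0.24 for HLA-DRB1 and 0.41 for HLA-DMA, and all 3 passed, which they did not over all libraries. HLA-DRA had few counts and an interaction of -3.99 ± 5.01 (adjusted p = 0.51).

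The co-stimulation and checkpoint genes did not move as 1 group: of 17 tested, 7 had a positive and 5 a negative interaction (10 and 5 without M0+LPS+IFN-γ replicate 4), and the median was 0.39. CD86 (ENSG00000114013, chromosome 3, 122055362 to 122121139), a ligand of CD28, had 23.9, 23.3, 22.2 and 31.4 CPM in M0+LPS+IFN-γ+iMSCs, against 0.457, 0.311, 0.502 and 1.9 CPM in M0+LPS+IFN-γ. At rest it was barely counted, with 0.211, 0.647, 0.345 and 0.735 CPM in M0+iMSCs, against 0.498, 0.0501, 0.587 and 0.387 CPM in M0. All 4 stimulated co-cultured libraries stood far above the others. The interaction was 4.71 ± 0.84 (adjusted p = 1.82e-04) and 5.57 without that replicate. CD274, the checkpoint ligand PD-L1, fell in both states, more under stimulation (-4.37) than at rest (-1.38), with an interaction of -2.99 ± 0.17 (adjusted p = 3.58e-10). PDCD1LG2, PD-L2, had effects of -0.30 and 1.45, TNFSF14 -1.47 and 1.16, and VSIR, an inhibitory receptor of the B7 family, 2.83 and 0.60. CD40 had a small interaction of -0.49 ± 0.15 (adjusted p = 0.00798). For CD80, the other CD28 ligand, the interaction was 0.91 ± 1.25 (adjusted p = 0.547).

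Most genes of NF-kB signalling and its feedback fell in both states. Of 22 tested, 20 fell and 2 rose under stimulation, and 16 fell and 3 rose at rest. The interaction was negative for 11 and positive for 7, and its median of -0.18 became positive when library totals set the scale. BIRC3, an inhibitor of apoptosis induced by NF-kB, had effects of -3.7 and -1.52 under stimulation and at rest, and IRAK2, a kinase of the Toll-like receptor pathway, -3.52 and -2.07. REL, an NF-kB subunit, was the member that reversed, with -1.03 and 0.56. CFLAR, which blocks caspase-8, had -1.26 and -0.31. Of 19 genes of Toll-like receptor and LPS sensing, 6 had a positive and 4 a negative interaction (11 and 4 without M0+LPS+IFN-γ replicate 4). Over all libraries both shares were near or below the 31.1% of all tested genes in each direction. TLR4, the LPS receptor, had effects of 2.32 and -0.16, and TLR8, which senses RNA, 2.35 and 4.72. TLR8 had only 1, 0, 4 and 2 counts in M0, so its effect at rest is not precise. IKBKB, a kinase that activates NF-kB, had 0.33 and -0.58, and TRAF6, an adaptor ligase, -1.26 and -0.55.

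Inflammasome and pyroptosis genes had 10 negative and 5 positive interactions among 17 tested (median -0.53), and 4 reversed downward. NLRP3, the sensor of cell damage, had effects of -2.07 under stimulation and 0.25 at rest, and AIM2, the sensor of cytosolic DNA, -1.77 and 1.67. MEFV, pyrin, had -1.29 and 0.85. Complement genes had 6 positive and 5 negative interactions among 17 (8 and 6 without M0+LPS+IFN-γ replicate 4). Over all libraries these shares were near the 31.1% of all tested genes in each direction. C3, the central component, had effects of 1.63 and 0.35, CFD, factor D, 1.02 (1.66 without M0+LPS+IFN-γ replicate 4) and -1.38, CD46 0.92 and 0.63, and CD59, which protects cells from lysis, -2.67 and -0.56.

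Immediate early genes, which respond within minutes to growth and stress signals, contained reversals in both directions. Of 25 tested, 12 had a negative and 10 a positive interaction (median -0.69), with 3 reversed upward and 4 downward. MYC (ENSG00000136997, chromosome 8, 127735434 to 127742951), the growth-promoting transcription factor, had 87.4, 92.9, 91.6 and 77.9 CPM in M0+LPS+IFN-γ+iMSCs, against 33.3, 33, 35.3 and 29.6 CPM in M0+LPS+IFN-γ. At rest MYC had 29.3, 32, 32.1 and 33.4 CPM in M0+iMSCs, against 99.5, 105, 97.7 and 101 CPM in M0. No library of one group overlapped the other in either state, and M0+LPS+IFN-γ+iMSCs came near the level of M0. The interaction was 3.08 ± 0.09 (adjusted p = 8.28e-14).

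DUSP1 (ENSG00000120129, chromosome 5, 172768096 to 172771195), a phosphatase that ends MAP kinase signalling and a glucocorticoid target, had 208, 209.8, 196 and 230.3 CPM in M0+LPS+IFN-γ+iMSCs, against 138, 147, 145 and 208 CPM in M0+LPS+IFN-γ. Resting DUSP1 levels were 34.1, 38.6, 28.9 and 29.2 CPM in M0+iMSCs, against 233, 238, 226 and 221 CPM in M0. Under stimulation M0+LPS+IFN-γ replicate 4 fell within the range of the co-cultured libraries, and at rest the drop with iMSCs was large in all 4. The interaction was 3.21 ± 0.17 (adjusted p = 1.51e-10). EGR2 (ENSG00000122877, chromosome 10, 62811996 to 62919900), a zinc-finger factor of macrophage differentiation, had 14.7, 9.19, 11.4 and 13.9 CPM in M0+LPS+IFN-γ+iMSCs, against 145, 148, 135 and 173 CPM in M0+LPS+IFN-γ. At rest EGR2 had 529.9, 544, 511 and 535 CPM in M0+iMSCs, against 433, 420.5, 441 and 427 CPM in M0. It fell sharply under stimulation and was slightly above M0 at rest, with an interaction of -3.92 ± 0.15 (adjusted p = 2.05e-12). IER3, an immediate early survival gene, had effects of -2.61 and 0.52, and KLF6, a zinc-finger factor, -0.24 and -2.3. Among 13 glucocorticoid-response genes 6 had a negative and 5 a positive interaction (median -0.70). KLF9 had effects of -0.85 and 1.03, SGK1, a kinase of ion transport, -2.11 and -0.80, and THBD, thrombomodulin, -2.92 and -1.02.

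Scavenger and phagocytic receptors, which take up lipoproteins, microbes and dead cells, had the most one-sided positive interactions among the receptor lists. Of 21 tested, 11 had a positive and 0 a negative interaction (median 1.53), and 14 and 1 without M0+LPS+IFN-γ replicate 4 (median 2.47). Under stimulation 14 rose and 1 fell. At rest 4 rose and 6 fell. Besides CD36, TREM1, an amplifier of inflammation, had effects of 2.56 under stimulation and 0.30 at rest. SCARB1, the HDL receptor, had 2.06 and 0.66, and CLEC4E, a sensor of mycobacterial glycolipid, 4.02 and 0.38. MARCO, a bacterial scavenger receptor, rose in both states (4.8 and 6.52) and its interaction of -1.72 ± 0.87 (adjusted p = 0.171) did not pass. M0+LPS+IFN-γ held only 0, 1, 0 and 2 MARCO counts, so the effect under stimulation and the interaction are not precise. The interaction ranged over -2.12 to -0.73 with 1 library left out. Genes of M2 polarization had 9 positive and 4 negative interactions among 16 tested (median 1.13). PPARG, the lipid-sensing nuclear receptor, had effects of 2.77 and -0.61, the second of which did not pass over all libraries. KLF4 had 1.36 and -0.37, TGM2, transglutaminase 2, -1.59 and 0.36, and CD163, the haemoglobin scavenger, -0.13 and -3.53. The effect on CD163 under stimulation did not pass over all libraries (adjusted p = 0.867). It was 1.63 (adjusted p = 2.15e-05) without M0+LPS+IFN-γ replicate 4, and the interaction was 3.39 with that library and 5.16 without it. MRC1, the mannose receptor, was too low to be tested.

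Markers of the macrophage lineage also had mostly positive interactions. Of 11 tested, 8 had a positive and 2 a negative interaction (median 1.02). Of 12 tested genes of immature myeloid cells, 5 had a positive and 1 a negative interaction (median 0.91), against 6 and 2 without M0+LPS+IFN-γ replicate 4 (median 1.55), and 3 reversed upward. MYB, a factor of progenitors, had effects of 2.36 under stimulation and -0.37 at rest. RNASE3 had 3.97 and -1.89, with reads possibly shared with RNASE2, and AZU1, azurocidin of granules, 1.88 (3.33 without that replicate) and -2.0. CD33, a sialic acid-binding receptor, had 1.99 and 0.43, AIF1 1.18 and 0.08, ITGAX, the integrin CD11c, -0.99 and 0.33, and FCER1G, a signalling chain of Fc receptors, -0.70 and 0.30. The effect on FCER1G at rest did not pass over all libraries.

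Genes of cell fusion and osteoclast differentiation, a fate of macrophages in bone, had more negative than positive interactions. Of 19 tested, 9 had a negative and 5 a positive interaction (median -0.54), and 3 reversed, all downward. Reversals in either direction numbered 5 without M0+LPS+IFN-γ replicate 4. OCSTAMP (ENSG00000149635, chromosome 20, 46540946 to 46550654), a membrane protein needed for fusion of mouse osteoclasts, had 0.368, 0.122, 0.0375 and 0.146 CPM in M0+LPS+IFN-γ+iMSCs, against 64.8, 65.4, 49.7 and 14 CPM in M0+LPS+IFN-γ. Resting OCSTAMP levels were 394, 448, 329 and 392 CPM in M0+iMSCs, against 137, 129, 132 and 127 CPM in M0. It was almost absent from M0+LPS+IFN-γ+iMSCs and highest in M0+iMSCs, with an interaction of -9.76 ± 0.72 (adjusted p = 8.23e-08).

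DCSTAMP (ENSG00000164935, chromosome 8, 104339087 to 104356689), a related fusion protein, had 43.6, 34.3, 41.5 and 44.5 CPM in M0+LPS+IFN-γ+iMSCs, against 273, 271, 270.5 and 173 CPM in M0+LPS+IFN-γ. At rest DCSTAMP had 373, 400.3, 373 and 391 CPM in M0+iMSCs, against 292, 275, 279.8 and 294 CPM in M0. The groups were separate in both states, and the interaction was -3.02 ± 0.17 (adjusted p = 3.03e-10). TNFRSF11A, the receptor RANK, fell in both states, less under stimulation (-2.35) than at rest (-3.85), with an interaction of 1.5 ± 0.17 (adjusted p = 9.85e-07). SRC, a kinase of the resorbing membrane, had effects of -1.78 and -0.72, and CA2, carbonic anhydrase, -3.17 and -1.81.

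Matrix genes and their proteases also had mostly negative interactions. Of 25 tested, 14 had a negative and 4 a positive interaction (14 and 7 without M0+LPS+IFN-γ replicate 4, median -1.05), and 4 reversed downward. TIMP1 (ENSG00000102265, chromosome X, 47582408 to 47586789), an inhibitor of metalloproteinases, had 385, 363, 393 and 411 CPM in M0+LPS+IFN-γ+iMSCs, against 1189.7, 1161, 1079 and 1561 CPM in M0+LPS+IFN-γ. Resting TIMP1 levels were 9483, 9248, 9217 and 9691 CPM in M0+iMSCs, against 3010.1, 2957, 2788 and 2742 CPM in M0. No 2 groups overlapped, M0+iMSCs being highest and M0+LPS+IFN-γ+iMSCs lowest. The interaction was -3.4 ± 0.13 (adjusted p = 1.24e-12). MMP7, matrilysin, had effects of -3.18 and -0.33, and MMP14, a membrane metalloproteinase, -0.88 and 0.17. FN1, fibronectin, rose in both states (3.45 and 2.37), with an interaction of 1.08 ± 0.24 (adjusted p = 0.00125). MMP9, a gelatinase, had an interaction of 0.43 ± 0.28 (adjusted p = 0.19).

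Markers of mesenchymal stromal cells also differed between the groups. Their summed level was 419 to 447 CPM in M0+LPS+IFN-γ+iMSCs, 343 to 434 CPM in M0+LPS+IFN-γ, 877 to 1130 CPM in M0+iMSCs and 319 to 336 CPM in M0. Of the 18 markers 3, 3, 3 and 6 had 0 counts in those groups. ENG made up 301 to 319 CPM of the sum in M0+LPS+IFN-γ+iMSCs. In M0+iMSCs, PDGFRA made up 325 to 536 CPM and COL6A3 272 to 290 CPM. COL1A2, COL3A1, COL5A1, POSTN and THY1 were at or near 0 in all groups and were not tested. DCN, decorin, chosen after its values were seen, had 1772 counts in M0+LPS+IFN-γ+iMSCs, 5 in M0+LPS+IFN-γ, 69 in M0+iMSCs and 0 in M0. In the same order of groups, LUM had 120, 2, 3 and 1 counts, ACTA2 51, 2, 8 and 0, and VCAM1 156, 35, 56 and 32. By contrast, COL6A3, PDGFRA, PDGFRB, FAP and PRRX1 were highest in M0+iMSCs. Of 13 tested markers, 6 had a negative and 2 a positive interaction, while the median was 0.08 and changed sign under other settings. FAP, a membrane protease, had effects of -1.91 and 1.28, PRRX1, a mesenchymal homeobox factor, -4.54 and 1.96, and PDGFRA, a growth factor receptor, -0.99 and 2.45. Their part in the matrix results and in COL6A3 was not tested.

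Among 20 genes of TGF-β ligands and response, 7 had a positive and 5 a negative interaction, with a median of 0.15. Without M0+LPS+IFN-γ replicate 4 there were 8 and 5. TGFB1 had effects of -1.24 under stimulation and -0.23 at rest, SMAD3, which carries its signal, -2.47 and -0.54, and TGFBR2, its receptor, 0.95 and -0.18. The prostaglandin and cAMP list had 9 positive and 8 negative among 25 (median 0.09), and 13 and 11 without that library. Over all libraries both lists had shares near the 31.1% of all tested genes in each direction. Without that library the prostaglandin and cAMP shares were above the 34.3% positive and 32.6% negative of all tested genes. PTGER4, a receptor for prostaglandin E2, had effects of 0.23 (0.35 without M0+LPS+IFN-γ replicate 4) and -1.67, and EREG, epiregulin, reversed in the same way as AREG (-4.29 and 1.8). LTA4H, which makes leukotriene B4, had 1.94 and 0.18, and NT5E, which makes adenosine, -3.0 and -1.2. PTGS2, cyclooxygenase-2, fell strongly in both states (-5.36 and -4.4) with an interaction of -0.96 ± 0.56 (adjusted p = 0.152). The medians of both lists changed sign under other settings.

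Most proliferation genes rose with iMSCs in both states, and many of them had a positive interaction. All 29 tested genes of the cell cycle and mitosis list rose under stimulation (median 5.11) and at rest (median 3.96). Of the 29, 14 had a positive and 0 a negative interaction (median 1.06). MKI67 (ENSG00000148773, chromosome 10, 128096659 to 128126423), the proliferation antigen Ki-67, had 157, 165, 160.4 and 97.7 CPM in M0+LPS+IFN-γ+iMSCs, against 0.971, 1.35, 1.2 and 1.38 CPM in M0+LPS+IFN-γ. At rest MKI67 had 72, 83.3, 45.3 and 39.2 CPM in M0+iMSCs, against 1.79, 2.35, 2.26 and 1.98 CPM in M0. Co-cultured libraries were far above their controls in both states, but varied: M0+iMSCs replicates 1 and 2 lay above replicates 3 and 4, and M0+LPS+IFN-γ+iMSCs replicate 4 below the other 3. The interaction was 2.05 ± 0.45 (adjusted p = 0.00117). It was 2.56 without M0+iMSCs replicates 1 and 2 and 1.68 without replicates 3 and 4.

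In DNA replication and nucleotide supply 24 of 30 tested genes had a positive and 0 a negative interaction (median 1.48). Under stimulation 28 rose and 1 fell (median 2.72), and at rest 23 rose and 1 fell (median 1.09). MCM3 (ENSG00000112118, chromosome 6, 52264014 to 52284881), a subunit of the replicative helicase, had 109.8, 131, 119 and 76.8 CPM in M0+LPS+IFN-γ+iMSCs, against 12.7, 13.3, 12 and 11.8 CPM in M0+LPS+IFN-γ. Resting MCM3 levels were 51.9, 49.1, 35.5 and 29.8 CPM in M0+iMSCs, against 34.7, 32.1, 29.9 and 30.5 CPM in M0. Under stimulation the groups were far apart. At rest they overlapped in part, and the effect of 0.39 did not pass (adjusted p = 0.0571). The interaction was 2.75 ± 0.25 (adjusted p = 2.14e-07). PCNA, the replication clamp, had effects of 2.39 and 0.85, MCM6 2.99 and 1.28, and CCNE1, cyclin E1, 2.68 and 0.56. In mitosis, CDC20, an activator of the anaphase complex, had 4.36 and 2.1, and KIF23, a cytokinesis motor, 1.41 and 0.47.

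Genes of glycolysis and chaperones included some that iMSCs raised under stimulation and lowered at rest. Of 22 glycolysis genes 10 had a positive and 5 a negative interaction (median 0.14), with 3 reversed upward and 2 downward. LDHA (ENSG00000134333, chromosome 11, 18394560 to 18408425), lactate dehydrogenase A, had 987, 1067, 1057 and 1058 CPM in M0+LPS+IFN-γ+iMSCs, against 375, 357, 392 and 348 CPM in M0+LPS+IFN-γ. At rest LDHA had 352, 357, 299.8 and 298 CPM in M0+iMSCs, against 354, 373, 343 and 362 CPM in M0, which overlapped. The effect was 1.5 under stimulation and -0.13 at rest (adjusted p = 0.0755), with an interaction of 1.63 ± 0.09 (adjusted p = 1.23e-10). ENO1, enolase, had effects of 0.18 and -1.09, PGK1 0.74 and -0.17, and GPI 0.68 and 0.01.

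BNIP3 (ENSG00000176171, chromosome 10, 131966455 to 131982013), a mitophagy receptor and the hypoxia-response gene with the smallest interaction p, had 57.2, 57.5, 56.1 and 78.6 CPM in M0+LPS+IFN-γ+iMSCs, against 30.4, 27.3, 29.1 and 25.1 CPM in M0+LPS+IFN-γ. Resting BNIP3 levels were 3.24, 3.88, 4.22 and 3.02 CPM in M0+iMSCs, against 15.6, 15.2, 15.3 and 15.2 CPM in M0. Every co-cultured library was above its control under stimulation and below it at rest. The interaction was 3.25 ± 0.16 (adjusted p = 3.80e-11). The hypoxia list did not move as 1 group, with 7 negative and 5 positive interactions among 20 and a median of 0.09. Its shares were near or below the 31.1% of all tested genes in each direction. ADM, adrenomedullin, had effects of -0.64 and -2.51, and DDIT4, an inhibitor of mTORC1, -1.57 and 0.60. VEGFA, the blood vessel growth factor, had an interaction of 0.15 ± 0.09 (adjusted p = 0.164).

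HSPD1 (ENSG00000144381, chromosome 2, 197486584 to 197516737), the mitochondrial chaperonin HSP60, had 306, 341, 319 and 265 CPM in M0+LPS+IFN-γ+iMSCs, against 114, 109, 115 and 125 CPM in M0+LPS+IFN-γ. At rest HSPD1 had 213, 216, 239.6 and 242 CPM in M0+iMSCs, against 323, 337, 338 and 335 CPM in M0. It reversed, rising under stimulation and falling at rest, with an interaction of 1.96 ± 0.10 (adjusted p = 3.87e-11). Of 18 heat shock and chaperone genes 11 had a positive and 4 a negative interaction (median 0.48), and 4 reversed upward. HSPA8, the constitutive HSP70, had effects of 0.71 and -0.99, CCT2, a chaperonin subunit, 0.28 and -1.28, and HSP90AB1 -0.02 and -1.14. Cytosolic ribosomal proteins followed the same direction at small size, with 16 positive and 1 negative interaction among 26 (median 0.28). Under stimulation 24 rose and 0 fell, and at rest 11 rose and 5 fell. RPL7 had effects of 0.49 and -0.46, RPS6 0.64 and 0.08, and RPS23 0.51 and -0.04. Among 19 aminoacyl-tRNA synthetases 7 were positive and 4 negative (median 0.10). Both shares were near or below the 31.1% of all tested genes in each direction. SARS1 had -0.76 and 0.63, CARS1 -0.74 and 0.37, LARS1 0.96 and 0.14, and FARSB 0.66 and -0.72.

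The respiratory chain parted by genome of origin. Of 26 nuclear-encoded genes 13 had a positive and 4 a negative interaction (median 0.28), and 21 rose and 2 fell under stimulation. Of 13 genes encoded in mitochondrial DNA, 10 had a negative and 0 a positive interaction (median -0.67). Under stimulation 11 of those fell and 0 rose, and at rest 5 rose and 2 fell. MT-CO1 had effects of -0.35 under stimulation and 0.39 at rest, MT-ND4 -0.44 and 0.53, MT-ND2 -0.83 and -0.16, and MT-ND5 -0.64 and 0.08. Among the nuclear genes COX5B, of cytochrome oxidase, had 0.04 and 1.52, and the ATP synthase genes ATP5F1B and ATP5MC3 0.39 and 0.78 under stimulation, against -0.17 and 0.18 at rest. In the TCA cycle 8 of 21 genes were positive and 4 negative (12 and 4 without M0+LPS+IFN-γ replicate 4). CS, citrate synthase, had 0.62 and -0.06, IDH3A -0.02 and -0.89, FH, fumarase, 0.82 and 0.28, and OGDH -0.68 and -0.17.

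Cholesterol synthesis and uptake genes had more negative than positive interactions. Of 21 tested, 11 had a negative and 4 a positive interaction (median -0.34, and -0.0090 with library totals in place of TMM factors). At rest 13 rose and 3 fell, and under stimulation 9 rose and 7 fell. SQLE (ENSG00000104549, chromosome 8, 124998497 to 125022283), squalene epoxidase, had 275, 236, 263 and 248 CPM in M0+LPS+IFN-γ+iMSCs, against 1383, 1320.0, 1367 and 1495 CPM in M0+LPS+IFN-γ. Resting SQLE levels were 1485, 1172, 1464 and 1334 CPM in M0+iMSCs, against 1507, 1530.0, 1478 and 1509.5 CPM in M0. Every library of M0+LPS+IFN-γ+iMSCs lay far below all others, and at rest the effect of -0.14 did not pass (adjusted p = 0.0773). The interaction was -2.3 ± 0.10 (adjusted p = 7.41e-12). INSIG1, a feedback regulator of sterol synthesis, had effects of -2.71 and -0.79, and IDI1, an isomerase of the pathway, -0.80 and 0.28.

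Targets of LXR, the oxysterol receptor, went mostly the other way, with 8 positive and 3 negative interactions among 14 (median 1.09). SREBF1, the lipogenic factor, had effects of 1.04 and -0.37, SCD, a fatty acid desaturase, 1.14 and -0.27, and ABCA1, the cholesterol exporter, -0.15 and -1.49. LPL, lipoprotein lipase, reversed downward (-1.44 and 1.92). PPAR and lipid droplet genes had 5 positive and 3 negative among 15 (median 0.14). Both shares were near or below the 31.1% of all tested genes in each direction. PLIN2, which coats lipid droplets, fell in both states, with effects of -0.62 and -2.47, DGAT2 had 0.41 and -0.39, and PNPLA2, a triglyceride lipase, -0.12 and 0.33.

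Genes of the unfolded protein and amino acid stress response had mostly negative interactions. Of 22 tested, 15 had a negative and 0 a positive interaction (median -0.67), and 14 and 2 without M0+LPS+IFN-γ replicate 4. DDIT3, the stress factor CHOP, had effects of -1.97 under stimulation and 0.80 at rest, HSPA5, the chaperone BiP, -0.33 and 0.94, DNAJB9 -1.84 and -0.43, and CEBPB -1.14 and -0.19. The list of metallothioneins, which bind zinc and copper, also held the zinc exporter SLC30A1. It had 4 negative and 0 positive interactions among 6 tested members (median -2.60), and 5 and 1 without that replicate. MT2A (ENSG00000125148, chromosome 16, 56608584 to 56609497) had 19, 21.6, 20 and 11.7 CPM in M0+LPS+IFN-γ+iMSCs, against 56.2, 57.4, 56.7 and 13 CPM in M0+LPS+IFN-γ. At rest MT2A had 58.1, 48.1, 37.9 and 33.5 CPM in M0+iMSCs, against 2.49, 2.1, 2.14 and 2.13 CPM in M0. M0+LPS+IFN-γ replicate 4 overlapped with the co-cultured libraries, and at rest every co-cultured library was far above M0. The interaction was -5.66 ± 0.58 (adjusted p = 1.89e-06) and -5.96 without that replicate. MT1E had effects of 0.68 and 5.23, MT1F 0.66 and 3.64, and SLC30A1, a zinc exporter, 0.56 and 1.42. The MT1 genes are near-identical copies, so how reads fell among them is uncertain.

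NRF2 targets, which defend against oxidants, were split, with 9 positive and 5 negative interactions among 18 (median 0.19). GCLC, of glutathione synthesis, had effects of -2.59 and -0.59, GSR 1.12 and -0.11, and TKT 1.48 and 0.16. Apoptosis regulators had 12 negative and 8 positive among 22 (median -0.55). BCL2, which protects from cell death, had -3.01 and -0.18, BCL2L1 -0.90 and 0.58, and BID, a death promoter, 0.02 and -1.04. Lysosome and cathepsin genes had 7 positive and 6 negative among 25 over all libraries, and 17 positive and 6 negative without M0+LPS+IFN-γ replicate 4. Over all libraries both shares were near or below the 31.1% of all tested genes in each direction. CTSL, cathepsin L, had -2.54 and -0.62, NPC1, the lysosomal cholesterol exporter, -1.75 and -0.22, ATP6V1H, of the proton pump, -0.90 and 0.46, and TFEB, the regulator of lysosomal genes, 0.55 and -0.38.

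The same interaction, read the other way, is the effect of stimulation with iMSCs minus its effect without them. LPS and IFN-γ changed 11382 genes (74.4%) in co-culture, 6010 (39.3%) rising and 5372 (35.1%) falling. Alone they changed 8779 (57.4%), 4451 (29.1%) rising and 4328 (28.3%) falling. Of all tested genes 2446 rose in both and 2244 fell in both. A further 1077 (7.04%) rose with stimulation in co-culture and fell alone, and 1079 (7.05%) fell in co-culture and rose alone. The 2 contrasts share no library.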

How the data were processed

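RNA of THP-1 cells was sequenced in 16 libraries. The authors deposited raw whole-number counts per gene. HISAT2, HTSeq and GRCh38 are named in the submitters' processing notes without roles, and GRCh38.p13 per the file headers. Versions, strandedness and the treatment of multi-mapped reads are not given in the sources used here. The count columns of co-cultured samples carry the letters CM, which the labels do not explain.

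Counts were filtered with filterByExpr (15301 of 60664 genes kept), scaled by TMM and fitted in 1 model of 4 groups over 16 libraries (12 residual degrees of freedom) with edgeR 4.0.16, robust quasi-likelihood, in R 4.3.3. P-values were Benjamini-Hochberg adjusted over all tested genes, with a threshold of 0.05. SEs are the log2 change over the root of the F statistic, and are approximate where a group has almost no counts. CPM values are after TMM and carry SDs of 4 libraries. Genes were named by rule: the 12 largest interactions and 10 largest reversals per direction that held without M0+LPS+IFN-γ replicate 4 (average log2 CPM at least 3), a panel of 26 genes, and up to 4 members of each of 40 lists by smallest interaction p. A few genes that the rule names are not reported here. The members and lists were chosen with earlier results of these data known. RefSeq promoters (GRCh38.p14) matched 70.7% of tested genes.

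Library totals of 17336637 to 24368753 counts set the precision. The fit was tested on simulated data of 15301 genes, of which 67, 67 and 66 were given interactions of 0.5, 1 and 2 log2 units. It called 28.4%, 64.2% and 87.9% of these, with 7 false calls. The real data had called interactions in far more genes and a library that stood apart, which the simulation lacked. These rates therefore need not hold for the real data. Counting intervals cover counting error only. Alternatives were other scalings and filters, DESeq2 1.42.0, limma-voom 3.58.1, a replicate block, a 1.5-fold minimum and libraries left out.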

Additional observations from a re-analysis of the deposited data

Results flagged for a closer look

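The co-culture effect differed by stimulation, tested as an interaction, for 9506 genes. The genes named below are among 31 shown library by library, which leave out EPSTI1. The interaction is in log2, effect under stimulation minus effect at rest. It was negative for TBX21 (-12.67), OCSTAMP (-9.76), AREG (-7.26), COL6A3 (-7.11), TNF (-6.24), MT2A (-5.66) and GBP2 (-4.87). It was also negative for CSF1 (-4.43), EGR2 (-3.92), WARS1 (-3.61), TIMP1 (-3.40), IL1RN (-3.10), DCSTAMP (-3.02), SQLE (-2.30) and IFI35 (-1.91). It was positive for ADGRE1 (6.01), FPR1 (5.84), OSM (5.28), FCGR3A (4.87), CD86 (4.71), IL7R (4.67), CD36 (4.54) and BNIP3 (3.25). Smaller positive values belonged to DUSP1 (3.21), MYC (3.08), MCM3 (2.75), MKI67 (2.05), HSPD1 (1.96) and LDHA (1.63).

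A library lay apart from the other 3 of its group, by Dixon's test, in 24 of 124 gene and group sets. These cover the same 31 genes, without EPSTI1. Chance gives about 6.2 (5%) for independent sets. The sets share libraries and the genes were not drawn at random, so that figure is only a guide. Of the 24, 13 were M0+LPS+IFN-γ replicate 4. That library was high for IFI35 (236.9 CPM, the others 103 to 104), ISG15 (184 CPM, others 13.4 to 15.6), OAS3 (1175 CPM, others 163 to 178), CD36 (287 CPM, others 57.9 to 60.2) and DUSP1 (208 CPM, others 138 to 147). It was also high for FCGR3A (17.6 CPM, others 1.66 to 2.21), IL7R (31.9 CPM, others 11.7 to 14.2), CD86 (1.90 CPM, others 0.311 to 0.502) and FPR1 (0.461 CPM, others 0.286 to 0.311). It was low for DCSTAMP (173 CPM, others 270.5 to 273), COL6A3 (0.519 CPM, others 5.42 to 5.60), AREG (246 CPM, others 597 to 654) and MT2A (13.0 CPM, others 56.2 to 57.4).

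In M0+LPS+IFN-γ+iMSCs, replicate 4 was high for FPR1 (92.5 CPM), AREG (19.9 CPM) and BNIP3 (78.6 CPM) and low for MKI67 (97.7 CPM). Replicate 1 was high for WARS1 (275 CPM) and low for LDHA (987 CPM), and replicate 2 held the single TBX21 count (0.0408 CPM). In M0+LPS+IFN-γ replicate 3, OSM stood high (1.20 CPM). In M0, TBX21 (12.8 CPM) and MT2A (2.49 CPM) were high in replicate 1 and IFI35 (12.9 CPM) in replicate 3.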

How the results depend on the processing

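The interaction counts stayed within 1.5 times under other scalings, filters, DESeq2, limma-voom and every left-out library, except as follows. With library totals alone, the negative interactions numbered 3108, the reversals 1606 upward and 762 downward under stimulation, and OAS3 became 0.27. Testing against a 1.5-fold minimum left 4827 interactions (2259 positive, 2568 negative). It left 6321 co-culture effects under stimulation and 4925 at rest, 5968 stimulation effects in co-culture and 2836 alone, and 474 reversals (116 upward, 358 downward). That test asks for a larger change by construction.

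Leaving out 1 library gave 9085 to 10232 interactions (4508 to 5248 positive, 4496 to 4984 negative) and 1955 to 2531 reversals (875 to 1161 upward, 1078 to 1370 downward). Co-culture effects then ranged over 11041 to 11956 under stimulation and 10178 to 11475 at rest, and stimulation effects over 11003 to 12023 in co-culture and 8090 to 9154 alone. Without M0+iMSCs replicates 1 and 2 there were 9121 interactions and 1976 reversals, and without replicates 3 and 4 there were 8754 and 1851.

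Among the genes followed by name, interactions that changed sign were all of genes that did not pass over all libraries. Over all tested genes, 18 passed both with TMM factors and with library totals alone, but with opposite signs. Those 2 fits shared 7860 interactions and 1317 reversals. OAS3 became 0.29 with the replicate block, 0.55 by limma-voom and 0.015 without M0+iMSCs replicates 1 and 2, and ranged over -0.35 to 1.23 with 1 library left out. ISG15 ranged over -1.51 to 0.79 and CXCL10 over -1.36 to 0.52. Without M0+iMSCs replicates 1 and 2, CXCL10 was 0.53 and CCL2 0.36. The cause was not tested. The interactions of PTGS2, CD80 and MMP9 passed without M0+LPS+IFN-γ replicate 4, and so did the effects at rest of SERPINF1, SERPINB2, STC1, PPARG, FCER1G, LDHA, SQLE, NPC1 and LARS1, whereas that of FPR1 no longer did. Searched on 1 strand only, ISRE letters stood in 1.48% of promoters, NF-kB in 0.293% and CHR in 7.31%.

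Deviations of same-numbered libraries from their group means had correlations of -0.19 to 0.25, over 0.1 in 4 of 24 pairs. The labels do not say whether the numbers pair libraries, and these values cannot decide it. With the replicate block there were 9395 interactions, 9268 shared with the fit without it, and 2066 reversals. Depth limits the genes near 0 in a group, such as CXCL9, TBX21 and FPR1, whose fitted folds are not precise.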
